A study of Mus musculus with 8 samples.

Results

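The 34 genes described here make up the ATF4 amino acid and serine response, and were chosen by name. They are the transcription factor gene Atf4, its partner factors, its feedback genes, and the biosynthetic enzyme and transporter genes that cells raise when amino acids run short. All 34 were among the 17983 gene symbols of the deposited tables, and all 34 passed the filter on low counts that kept 14895 genes for testing. The data were messenger RNA libraries from whole brains of male db/db mice, a strain with a mutated leptin receptor that becomes obese and diabetic. For 4 libraries the mice received ketogenic food, rich in fat with little carbohydrate, starting at 9 weeks and ending at 6 months of age. For the other 4, called control, the food was a normal diet over the same ages. Mice of both diets carried the db/db genotype, so the comparison is of diets within diabetic animals. The labels do not say whether each library came from a separate mouse, and p-values measure the spread between these libraries.

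Translation initiation factor eIF2 is the point where the pathway starts. Kinases such as GCN2, which binds uncharged transfer RNA, phosphorylate eIF2α, which lowers most protein synthesis while favouring translation of the Atf4 messenger RNA. ATF4 protein, as a dimer with a C/EBP factor, binds a composite site called the C/EBP-ATF response element and raises genes of amino acid synthesis and uptake. Because ATF4 is controlled largely at translation, RNA levels of its targets are the usual RNA readout. In brain, serine is made mainly in astrocytes, and the transporter LAT1 brings large neutral amino acids across the blood-brain barrier.

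Of the members, several carry the letters of that response element before a transcription start listed by RefSeq, and these sites are shown because they are the sequence feature by which the set is usually recognised. The core TGATGNAA was searched on both strands in the 250 bases before each start of the RefSeq promoter table (GRCm38.p6), and the cAMP response element TGACGTCA in the same way; no printed window holds both. The table held 29 of the 34 members. Of these, 7 (24.1%) had a TGATGNAA match, where 3.91% of all 27025 genes in the table did. The match is printed in capitals with up to 10 bases on each side, 5′ to 3′ on the strand where it reads TGATG.
Asns, chr6:7693215-7693242, minus strand: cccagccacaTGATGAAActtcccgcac
Atf3, chr1:191183426-191183453, plus strand: gcggacttggTGATGCAAgtgcgagaag
Chac1, chr2:119351039-119351066, minus strand: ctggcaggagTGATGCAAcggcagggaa
Nupr1, chr7:126625563-126625590, plus strand: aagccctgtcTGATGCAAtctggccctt
Pycr1, chr11:120643834-120643861, minus strand: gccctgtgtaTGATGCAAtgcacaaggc
Slc7a11, distal site, chr3:50443662-50443689, minus strand: ctcatgtggcTGATGCAAacctggagaa
Slc7a11, proximal site, chr3:50443643-50443670, plus strand: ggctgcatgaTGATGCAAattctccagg
Vldlr, chr19:27216810-27216837, minus strand: ctaggagcgcTGATGCAActattgctgc

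Asns was the member with the variant TGATGAAA, and the other printed sites read TGATGCAA. The distance from match to the RefSeq start ran from 15 bases in Asns to 192 bases in Vldlr. GENCODE M21 places the outermost start of Asns, Atf3, Nupr1 and Vldlr further upstream, so these matches lie inside the GENCODE gene bounds. Slc7a11 had a pair of sites facing each other, whose windows overlap. The TGACGTCA core was found before 1 member, Ppp1r15a, where 1.77% of genes in the table had it, and it lay 4 bases from the start.
Ppp1r15a, chr7:45526269-45526290, minus strand: gcctctccggTGACGTCAgcac

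A match here is a description of letters and not of binding. The changes with diet of the 7 genes that hold TGATGNAA are given with their roles below, and none passed the test.

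Levels between genes are compared per length, in FPKM (fragments per kilobase of gene, scaled to library size), as the authors deposited them. The members spanned a wide range. In ketogenic libraries Atf4 was the most abundant member at 87.1 ± 6.07 FPKM, and in control libraries it stood at 84.4 ± 4.0 FPKM (SD, n = 4 each, as throughout). The phosphoserine aminotransferase gene Psat1 followed at 56.7 ± 4.56 FPKM in ketogenic and 54.5 ± 4.36 FPKM in control libraries. Next came the asparagine synthetase gene Asns at 44.9 ± 1.03 FPKM in ketogenic and 46.1 ± 2.15 FPKM in control libraries. By the control mean, 10 members were at or above 10 FPKM, 18 between 1 and 10, and 6 below 1. The 6 below 1 FPKM were Atf3, Trib3, Shmt1, Pycr1, Slc1a5 and Stc2. These 6 genes rest on few reads, and the lowest single value was 5 counts, for Trib3. The gene length implied by the FPKM table was more than 1.2 times that of all GENCODE exons of the gene joined for Slc3a2 (9850 against 3529 bases), Slc7a3 (5430 against 3784), Ddit3 (2432 against 1713) and Vldlr (12715 against 10068). The FPKM levels of these 4 genes are therefore uncertain beside other genes, and Slc3a2 is among the 10 members counted at or above 10 FPKM. Other members had an implied length below that of the joined exons, among them Nupr1 (626 against 2514 bases) and Stc2 (1793 against 5175). So did Atf4 (1446 against 2358 bases), Psat1 (2491 against 4254) and, by less, Asns (2365 against 2735). The FPKM levels of such genes are uncertain in the same way, and so is the order of Atf4, Psat1 and Asns. Nupr1, at 11.3 FPKM in control libraries, is also among the 10.

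**Figure D1:**
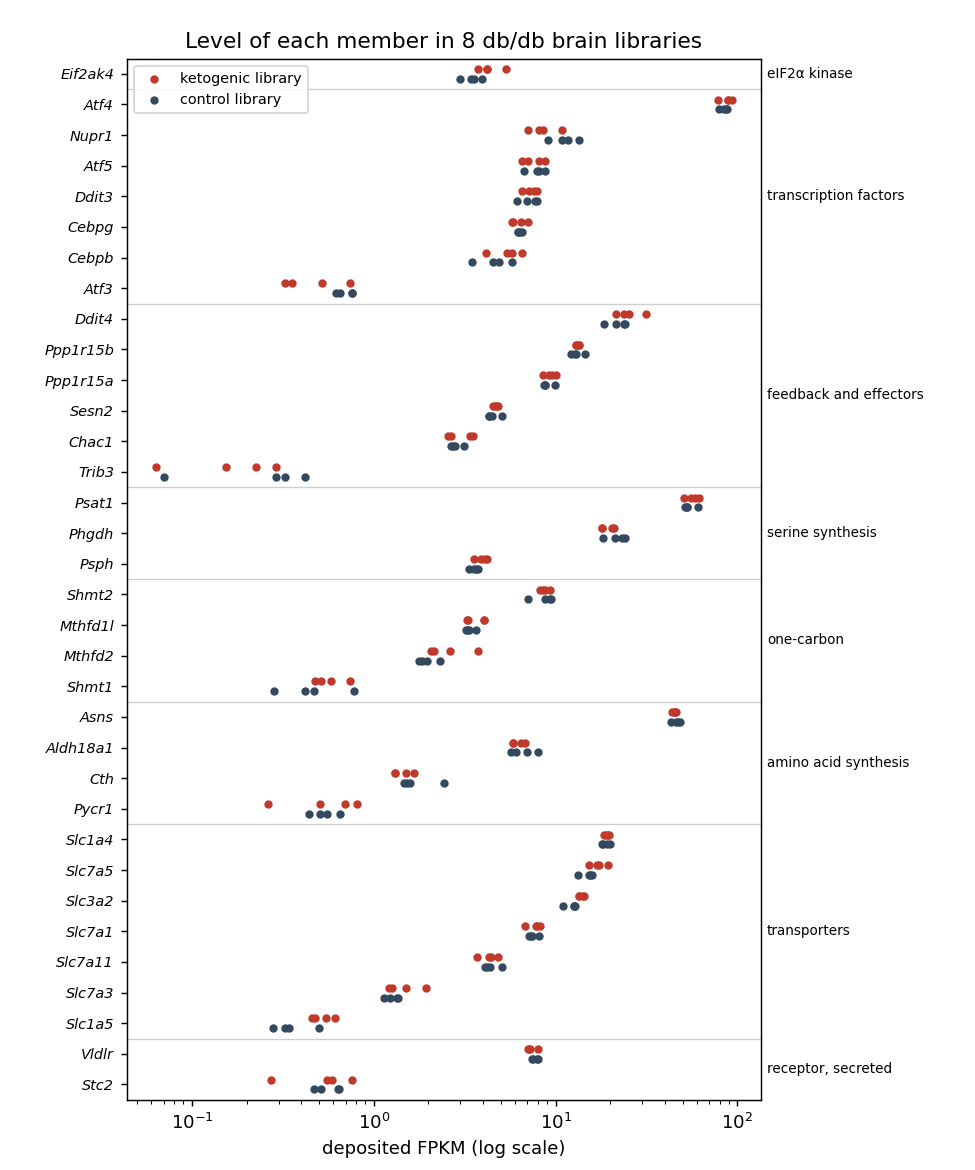
Deposited FPKM (log axis) of each of the 34 members in the 4 ketogenic (red) and 4 control (dark grey-blue) libraries, grouped by role. Atf4, Psat1 and Asns lie highest, Trib3 lies lowest, and the points of both groups overlap for nearly every gene.

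No member of the response passed the threshold with the ketogenic diet. Of the 34 members, 0 were higher and 0 lower at an adjusted p under 0.05 (edgeR quasi-likelihood F test, Benjamini-Hochberg adjusted over all 14895 tested genes). Of all tested genes 6.52% passed, 3.3% higher and 3.22% lower. That background moved with single libraries: 491 genes were higher and 480 lower with all libraries, 70 and 76 without control replicate 1, and 938 and 962 without control replicate 4. Omitting ketogenic replicate 2 left 102 and 94, and omitting control replicate 2 left 99 and 106. Among the members 1, Eif2ak4, was higher without control replicate 4, and 0 passed with any other single library omitted. On the first principal component (27.2% of variance) control libraries lay between -20.4 and -2.39 and ketogenic libraries between 7.22 and 16.1. Ketogenic replicates 3 and 4 stood apart on the second principal component (19.9% of variance), at 21.9 and -17.4, where the other libraries lay between -9.38 and 6.53. Without both, 0 members and 39 and 51 of all genes were higher and lower. At an unadjusted p under 0.05 there were 5 members (14.7%), against 24.6% of all tested genes. The DESeq2 Wald test called 2 of the 28 members it gave an adjusted p, Slc3a2 and Eif2ak4, both higher, and called 14.1% of all genes. Limma-voom and limma on log2(FPKM + 1) or log2(FPKM + 0.1) called 0 members. The median log2 change of the members was 0.04, against -0.00 for all tested genes, with 22 members above 0 and 12 below. The median size of the change, whatever its direction, was 0.10 in log2 for members and 0.13 for all tested genes. The CPM values (counts scaled to library size) of the ketogenic and control groups did not overlap for 1 member, Slc3a2, which was higher. Of all tested genes 13.7% did not overlap, 7.22% higher and 6.51% lower.

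How small a change these libraries could have shown differs between the members. The 95% interval of the log2 change, from the same fit and not adjusted for the number of genes, had a median half-width of 0.21 and ran from 0.11 to 1.17. For 13 members the whole interval lay within 1.2-fold in either direction, for 25 within 1.5-fold and for 31 within 2-fold. The exceptions at 2-fold were Atf3, Trib3 and Slc1a5, which are among the 6 lowest genes. The intervals of Atf3 and Trib3 ran further down than up, with upper bounds of 1.13-fold and 1.48-fold, and that of Slc1a5 reached 2.26-fold upward. A miss of the threshold does not show that the groups were alike.

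**Figure D2:**
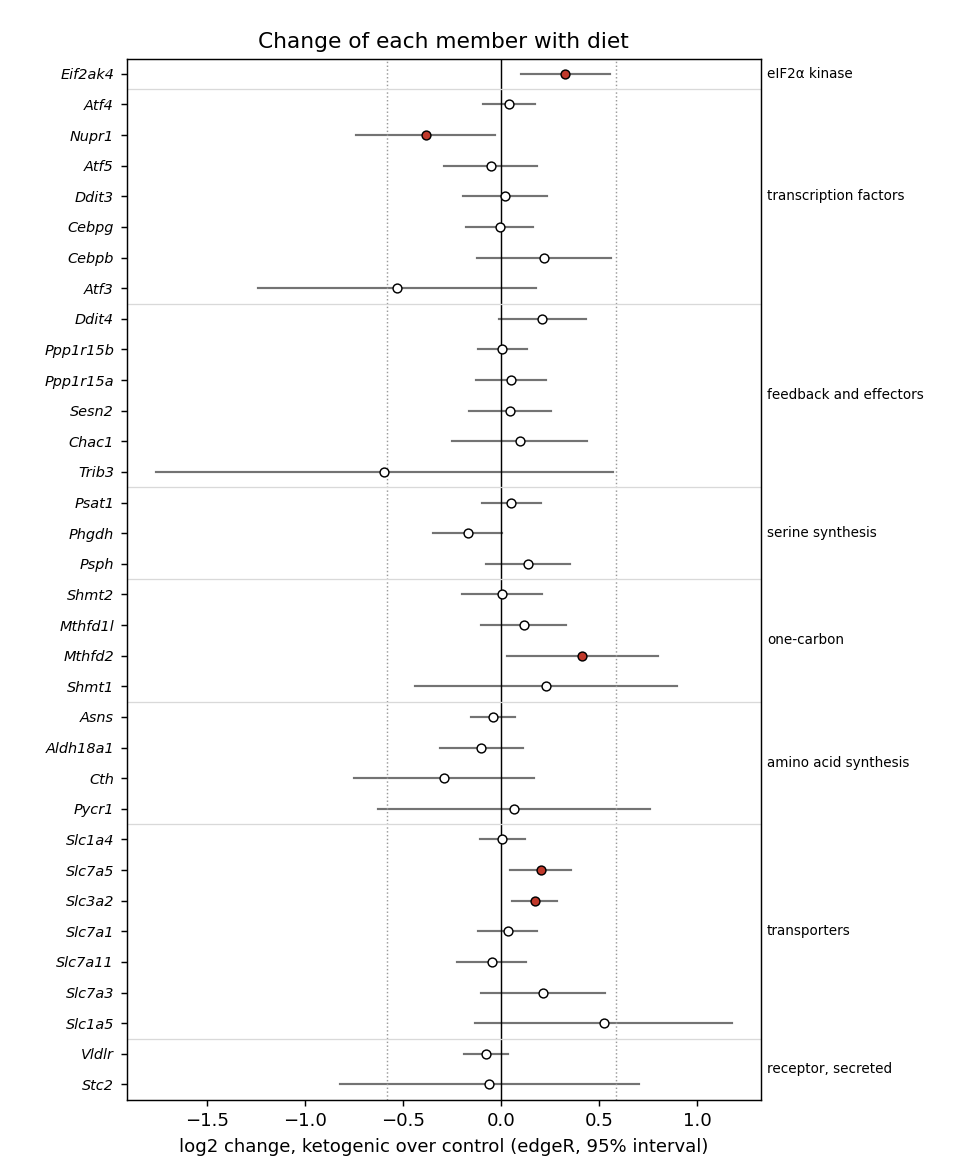
Log2 change of each member, ketogenic over control, with its 95% interval from the edgeR fit, grouped by role; filled points have an unadjusted p under 0.05 and dotted lines mark 1.5-fold. The 5 filled points are Eif2ak4, Nupr1, Mthfd2, Slc7a5 and Slc3a2, and none has an adjusted p under 0.05.

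**Figure D3:**
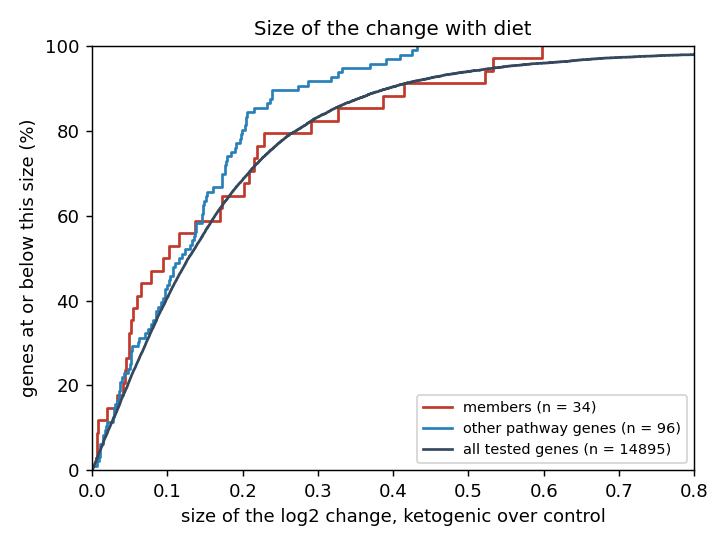
Share of genes (percent) whose log2 change with diet is at or below each size, for the 34 members, 96 tested other pathway genes and all 14895 tested genes. The median size was 0.10 for members and 0.13 for all tested genes, and the axis ends at 0.8.

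Eif2ak4 encodes GCN2, the kinase that senses uncharged transfer RNA. It lies at chr2:118388618-118475234 on the plus strand (gene bounds on GRCm38, GENCODE M21, here and below). Its level was 30.1, 23.1, 21.5 and 23.1 CPM in ketogenic libraries, against 17.0, 19.8, 19.3 and 21.9 CPM in control libraries. Ketogenic replicate 1 stood highest, and the lowest ketogenic value lay just under the highest control value, so the groups overlapped. Its log2 change was 0.33 ± 0.11 (SE, edgeR adjusted p = 0.0758). Without control replicate 4 the adjusted p was 0.0380, past the threshold, and without ketogenic replicate 1 the change was 0.21 with an adjusted p of 0.213. With the DESeq2 Wald test the adjusted p was 0.0379.

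Atf4 itself, at chr15:80255184-80257541, had 129, 112, 138 and 125 CPM in ketogenic libraries, against 116, 125, 123 and 126 CPM in control libraries. The control values lay inside the range of the ketogenic ones. Its log2 change was 0.04, with a 95% interval of -0.09 to 0.17 (edgeR adjusted p = 0.739). Atf4 RNA does not report how much of it is translated, and these data hold no protein measurement.

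The other factors stood close to their control levels or varied widely between libraries. Ddit3, which encodes the stress-induced factor CHOP, had 17.5, 15.6, 19.7 and 18.2 CPM in ketogenic libraries, against 19.0, 16.9, 14.95 and 19.1 CPM in control libraries. Those groups overlapped almost fully, and the 95% interval of its log2 change was -0.19 to 0.23. Cebpg, a dimer partner of ATF4, had a log2 change of -0.01 ± 0.08 (SE). Atf5, a relative of ATF4 that is likewise controlled at translation, had a log2 change of -0.05 ± 0.11 (SE). Cebpb, another C/EBP factor, averaged 8.26 ± 1.41 CPM in ketogenic and 7.09 ± 1.41 CPM in control libraries.

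Atf3 and Nupr1 had the lowest values of the factor group relative to control. Atf3, a repressor that stress and neuronal activity induce, had 0.647, 1.44, 0.719 and 1.0 CPM in ketogenic libraries, against 1.53, 1.28, 1.23 and 1.48 CPM in control libraries. Ketogenic replicate 2 lay among the controls and the other ketogenic replicates lay below them. Atf3 had a log2 change of -0.53, with a wide 95% interval of -1.24 to 0.18 (edgeR adjusted p = 0.355). Immediate early genes, which neurons transcribe on activity, were lower in ketogenic libraries: 13 of 14 listed genes fell and 0 rose, and their summed level was 785 to 998 CPM in ketogenic and 1316 to 1688 CPM in control libraries. Their part in the Atf3 values was not tested. Nupr1, a small chromatin-associated stress protein, had 4.45, 5.28, 6.95 and 4.98 CPM in ketogenic libraries, against 8.59, 7.32, 6.80 and 5.63 CPM in control libraries. All but ketogenic replicate 3 lay below every control library. Nupr1 differed by -0.39 ± 0.17 in log2 (SE, edgeR adjusted p = 0.166).

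Of the 6 genes that feed back on the response or slow growth, none passed. Ppp1r15a and Ppp1r15b encode the phosphatase subunits that remove the phosphate from eIF2α. Their log2 changes were 0.05 ± 0.08 and 0.01 ± 0.06 (SE). Ppp1r15b gave one of the narrower intervals of the set, -0.12 to 0.13. Ppp1r15a, the gene with the TGACGTCA match, averaged 21.8 ± 1.57 CPM in ketogenic and 21.0 ± 1.56 CPM in control libraries.

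Ddit4 encodes REDD1, an inhibitor of the growth kinase complex mTORC1. It had 43.0, 35.7, 41.1 and 51.6 CPM in ketogenic libraries, against 36.9, 30.8, 40.5 and 40.1 CPM in control libraries. Ketogenic replicate 4 was the highest of the 8 and the groups overlapped; the log2 difference was 0.21 ± 0.10 (SE, edgeR adjusted p = 0.234). Sesn2, a leucine sensor that also restrains mTORC1, had a log2 change of 0.04, with a 95% interval of -0.16 to 0.25. Chac1, a glutathione-degrading enzyme gene with a TGATGCAA match, averaged 4.76 ± 0.814 CPM in ketogenic and 4.46 ± 0.323 CPM in control libraries.

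Trib3, a pseudokinase gene that restrains ATF4 and rises steeply when the response is switched on, was barely detected in either group. It had 18, 24, 5 and 12 counts in ketogenic libraries, against 5, 24, 31 and 23 counts in control libraries. Both groups contained a library with 5 counts. The 95% interval of its log2 change, -1.76 to 0.57, leaves a rise of 1.48-fold and a fall to 0.294 of control inside it.

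Serine synthesis from glucose takes the dehydrogenase Phgdh, then Psat1, then the phosphatase Psph, and no step of it passed. Phgdh, at chr3:98313170-98339990, had 38.2, 33.3, 34.5 and 38.2 CPM in ketogenic libraries, against 34.8, 39.4, 43.7 and 44.5 CPM in control libraries. Control replicate 1 lay among the ketogenic values and the other controls lay above all of them. The log2 change was -0.17, with a 95% interval of -0.35 to 0.00 (edgeR adjusted p = 0.213). Psat1 and Psph, the later steps, had log2 changes of 0.05 ± 0.07 and 0.14 ± 0.10 (SE). The difference between Phgdh and the later steps was not tested. Because Phgdh is mainly an astrocyte gene in brain, 12 astrocyte markers were read beside it: 1 rose and 3 fell, and their sum was 5125 to 5680 CPM in ketogenic and 5212 to 6058 CPM in control libraries. Much of that sum came from Slc1a2, with a mean of 2586 CPM in ketogenic and 2808 CPM in control libraries. Each of the 12 markers passed the count filter, and their log2 changes ran from -0.54 to 0.33. Their part in the Phgdh values was not tested, and in whole tissue fewer cells of a type and less RNA per cell cannot be told apart.

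One-carbon genes, which pass carbon from serine to folate, had log2 changes of 0.01 to 0.41 in the 4 members, and none passed. Mthfd2, a mitochondrial folate enzyme, had 4.89, 8.71, 5.22 and 6.10 CPM in ketogenic libraries, against 4.24, 4.65, 4.40 and 5.43 CPM in control libraries. Ketogenic replicate 2 stood well above the rest, and the lowest ketogenic values overlapped the highest control value. For Mthfd2 the log2 change was 0.41 ± 0.18 (SE, edgeR adjusted p = 0.173), and without ketogenic replicate 2 it was 0.21 (adjusted p = 0.530). Mthfd1l, which completes the mitochondrial route to formate, had a log2 change of 0.11 ± 0.10 (SE). The mitochondrial serine hydroxymethyltransferase gene Shmt2 had 0.01 ± 0.10 and the cytosolic Shmt1 0.23 ± 0.32 (SE of the log2 change).

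Enzymes for other amino acids did not pass either. Asns, which makes asparagine and is among the most studied ATF4 targets, lies at chr6:7675169-7693254. It had 109, 101.2, 109.6 and 104 CPM in ketogenic libraries, against 104, 111, 109 and 113 CPM in control libraries. The groups overlapped across most of their range. Its log2 change was -0.04, with a 95% interval of -0.16 to 0.07 (edgeR adjusted p = 0.663), which was the narrowest interval among the members. Its upper bound corresponds to a 1.05-fold rise. Aldh18a1 and Pycr1, of proline synthesis, had log2 changes of -0.10 ± 0.10 and 0.06 ± 0.33 (SE). Cth, which makes cysteine from cystathionine, averaged 2.59 ± 0.30 CPM in ketogenic and 3.17 ± 0.811 CPM in control libraries.

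Of the transporters, the pair that forms LAT1 came nearest to the threshold. Slc3a2 encodes the shared heavy chain CD98, which carries LAT1 and other light chains to the membrane, and lies at chr19:8706882-8723369. It had 132, 138, 137 and 137 CPM in ketogenic libraries, against 109.8, 125, 126 and 123 CPM in control libraries. All 4 ketogenic libraries lay above all 4 controls, and the ketogenic values were tightly grouped. The log2 change was 0.17, or 1.13-fold, with a 95% interval of 0.05 to 0.29 (edgeR adjusted p = 0.0709). Leaving out single libraries gave adjusted p-values of 0.0556 to 0.200, the highest without control replicate 1, where the change was 0.13. The DESeq2 Wald test gave 0.0286, and removing trends with GC and length gave 0.117. That removal used the length implied by FPKM, which for Slc3a2 was 9850 bases against 3529 for the joined exons.

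Slc7a5, the LAT1 light chain gene at chr8:121881150-121907694, had 54.1, 60.2, 60.9 and 66.9 CPM in ketogenic libraries, against 47.3, 54.2, 56.1 and 52.9 CPM in control libraries. Only ketogenic replicate 1 lay within the control range, and the other ketogenic replicates lay above it. For Slc7a5 the log2 change was 0.20 ± 0.07 (SE, edgeR adjusted p = 0.102), and 0.15 with an adjusted p of 0.230 when the GC and length trend was removed. LAT1 is enriched in brain endothelium. Of 11 endothelial markers, each of which passed the count filter, 1 rose and 0 fell, and their sum was 300.2 to 344 CPM in ketogenic and 286 to 348 CPM in control libraries.

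The other transporters did not pass either. Slc7a11, the light chain of the cystine and glutamate exchanger, partners with CD98 as well and has the pair of TGATGCAA matches. It had 41.3, 44.2, 35.6 and 39.6 CPM in ketogenic libraries, against 48.1, 38.2, 41.0 and 39.1 CPM in control libraries. The groups overlapped, and its log2 change was -0.05, with a 95% interval of -0.23 to 0.13. Slc1a4, the neutral amino acid transporter ASCT1, which carries serine in brain, had a log2 change of 0.01 ± 0.05 (SE). Slc7a1 and Slc7a3, for cationic amino acids, had 0.03 ± 0.07 and 0.21 ± 0.15 (SE of the log2 change). Slc1a5, encoding ASCT2, had 59, 53, 49 and 65 counts in ketogenic libraries, against 31, 34, 28 and 54 counts in control libraries. Control replicate 4 overlapped the ketogenic values, and the log2 change was 0.52 ± 0.31 (SE, edgeR adjusted p = 0.321).

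The remaining members were Vldlr and Stc2. Vldlr, a lipoprotein and Reelin receptor, averaged 93.3 ± 4.55 CPM in ketogenic and 98.5 ± 2.77 CPM in control libraries, a log2 change of -0.08 ± 0.05 (SE). Stc2, a secreted glycoprotein gene, had a log2 change of -0.06 ± 0.36 (SE). Among the 7 genes with a TGATGNAA match, the log2 changes ran from -0.53 for Atf3 to 0.09 for Chac1, with Pycr1 at 0.06 and Asns, Slc7a11, Vldlr and Nupr1 between them.

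**Figure D4:**
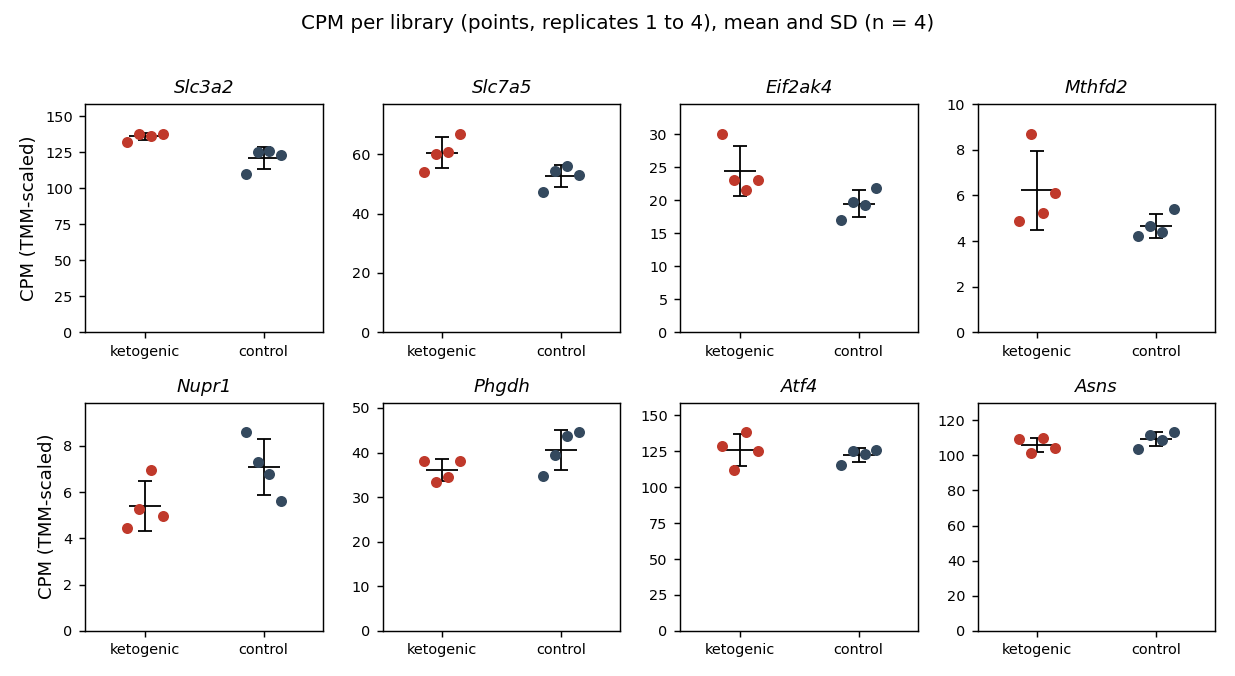
CPM of 8 members in each of the 4 ketogenic (red) and 4 control (dark grey-blue) libraries, with mean and SD; axes start at 0. Slc3a2 is the panel in which the groups do not overlap, the high ketogenic points of Eif2ak4 and Mthfd2 are replicates 1 and 2, and Atf4 and Asns show no separation.

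Other genes of the pathway were read from 6 lists chosen by role, which held 100 matched genes outside the members, 96 of them tested. Of the 96, 3 were higher (Gpt2, Sesn1 and Slc7a14), 1 was lower (Aldh1l1) and 92 did not pass, beside the 3.3% higher and 3.22% lower among all tested genes. Their median log2 change was 0.03. Leaving out single libraries gave 1 to 11 higher and 0 to 2 lower. The 11 and the 2 came without control replicate 4. The lowest number higher, 1, came on omitting ketogenic replicate 2, and likewise control replicate 1 or 2.

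Gpt2, the mitochondrial alanine aminotransferase that links pyruvate and glutamate to alanine and is a known ATF4 target, rose. It had 76.3, 83.4, 82.8 and 84.6 CPM in ketogenic libraries, against 57.9, 57.2, 62.5 and 64.9 CPM in control libraries. The groups were well apart, and Gpt2 was 1.35-fold higher (log2 0.43 ± 0.06 SE, edgeR adjusted p = 0.00251). Without any single library its adjusted p was at most 0.0162. The cytosolic form Gpt had a log2 change of 0.04 ± 0.13 (SE), and the difference between the forms was not tested.

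Sesn1, a relative of Sesn2 that also restrains mTORC1, rose. It had 76.2, 75.3, 76.4 and 74.6 CPM in ketogenic libraries, against 58.7, 57.1, 68.9 and 63.3 CPM in control libraries. Every ketogenic value lay above every control value. The log2 change was 0.29 ± 0.06 (SE, edgeR adjusted p = 0.0194). Omitting ketogenic replicate 2 ended the call (adjusted p = 0.0617), as did omitting control replicate 1 (0.0735) or control replicate 2 (0.0715).

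Slc7a14, a member of the cationic amino acid transporter family, rose as well. It had 203, 224, 226 and 203 CPM in ketogenic libraries, against 180.1, 194, 172 and 196 CPM in control libraries. The groups did not overlap, with 0.20 ± 0.06 as its log2 change (SE, edgeR adjusted p = 0.0486). Among single omissions the call held only without control replicate 4, and the adjusted p reached 0.138. Aldh1l1, a folate enzyme and astrocyte marker, had 53.2, 57.4, 49.6 and 56.5 CPM in ketogenic libraries, against 64.2, 59.5, 65.0 and 67.1 CPM in control libraries. Every ketogenic value lay below every control value. Its log2 change was -0.24 ± 0.06 (SE, edgeR adjusted p = 0.0386), and the call was lost with any single library left out, with an adjusted p of 0.0520 to 0.108. The astrocyte marker sums given with Phgdh apply here too, and their part was not tested.

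Transfer RNA synthetase genes, many of which ATF4 raises, did not pass: 0 of 20 in edgeR, with 5 at an unadjusted p under 0.05, and 0 in DESeq2 or limma-voom. Their median log2 change was 0.03, and their range was -0.19 to 0.18. Genes of the eIF2 kinases, eIF2 and its exchange factor had 0 of 14 past the threshold in edgeR, DESeq2 or limma-voom, with 3 at an unadjusted p under 0.05. The counts at an unadjusted p under 0.05 were 25% and 21.4% of these lists, beside 24.6% of all tested genes.

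**Figure D5:**
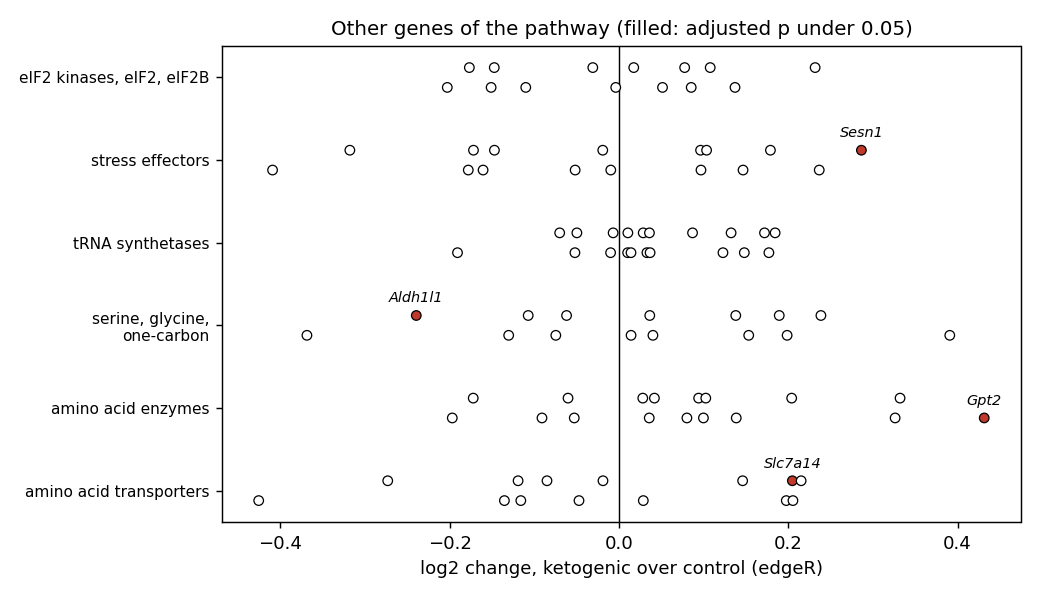
Log2 change of each of 96 tested pathway genes outside the members, ketogenic over control, in 6 lists by role (vertical offsets within a list only separate the points). Filled points passed at an adjusted p under 0.05: Gpt2, Sesn1 and Slc7a14 to the right and Aldh1l1 to the left.

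The libraries as a whole held 34450860 to 40233361 counts, and brain identity was plain, with 11 neuronal markers summing to 10206 to 12001 CPM in ketogenic and 10912 to 11914 CPM in control libraries. Summed levels of 6 erythroid markers were 296 to 348 CPM in ketogenic and 223 to 269.5 CPM in control libraries, and those of 10 meningeal and choroid plexus markers 1138 to 1445 CPM in ketogenic and 689 to 1212 CPM in control libraries. Of the erythroid markers 4 rose and 0 fell, and of the meningeal and choroid plexus markers none passed in edgeR, with 4 at an unadjusted p under 0.05 and 2 called by DESeq2. Of 10 microglial markers 1 rose and 0 fell, of 10 oligodendrocyte markers 0 rose and 2 fell, and of 8 pericyte and smooth muscle markers 0 rose and 1 fell. The summed levels of the microglial, oligodendrocyte, and pericyte and smooth muscle lists overlapped between the groups, as did those of the meningeal and choroid plexus list. Those of the erythroid list did not overlap and were higher in ketogenic libraries. The part of these marker lists in the members' values was not tested.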

How the data were processed

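The authors deposited raw counts per gene symbol and FPKM values for the same 8 libraries, per the file headers. Per the labels' protocols, RNA was column purified and 1.3 ug of total RNA went into each SMARTer messenger RNA library. The submitters' processing notes name the builds GRCm38 and mm10. The choice of aligner, counter, annotation and strand setting was not given in the sources used here. Deposited FPKM equalled count over a fixed gene length and column total, with a spread of at most 1.79e-07, so it adds only lengths.

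Counts were tested with edgeR 4.0.16 (TMM scaling, filterByExpr, quasi-likelihood F test, intercept and diet), adjusted over 14895 genes. The standard error (SE) is the log2 change over the square root of F, and intervals use the fit's degrees of freedom. CPM uses TMM library sizes. DESeq2 1.42.0, limma 3.58.1, other scalings and filters, a per-library loess trend on GC and length (span 0.3), and left-out libraries were alternatives. The length in that trend was the one implied by FPKM. The procedure was tested on simulated data.

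The members and lists were chosen with earlier results of these data known. Values per library are given for members whose groups do not overlap and for Atf4, Ddit3, Asns, Phgdh, Slc7a11 and Trib3. Those of Eif2ak4, Slc7a5, Mthfd2, Nupr1, Atf3, Ddit4 and Slc1a5 were added after their values were seen. Pathway genes past the threshold are named. Gene bounds are from GENCODE M21. By these bounds 13 of 34 members overlap another gene (Ddit3 with the synthetase gene Mars, for example), and their reads could be shared. That count covers overlaps with protein-coding, long intergenic noncoding, antisense and processed pseudogene entries, and no other gene types.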

Additional observations from a re-analysis of the deposited data

Results flagged for a closer look

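In 5 of the 76 groups of 4 values checked (34 members and 4 pathway genes, each in both diets), 1 library lay far from the other three of its group. Chance alone gives this in about 1 group in 20. Slc7a1 had 49.3 CPM in ketogenic replicate 4, and the nearest other ketogenic library had 58.9 CPM. Shmt2 had 21.6 CPM in ketogenic replicate 1, next to 19.7 CPM in the nearest other ketogenic library. Slc3a2 had 109.8 CPM in control replicate 1, and the nearest other control had 123 CPM; without that library the log2 change was 0.13 in place of 0.17. Ppp1r15a had 23.4 CPM in control replicate 1, next to 20.3 CPM in the nearest other control. Cth had 4.38 CPM in control replicate 4, next to 2.88 CPM in the nearest other control.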

How the results depend on the processing

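Of 638 recomputed changes of single members, 634 stayed on the same side of the threshold, 4 newly passed and 0 reversed as calls. The 4 concern Slc3a2 (DESeq2 Wald test, and a replicate block, adjusted p = 0.0434) and Eif2ak4 (DESeq2, and without control replicate 4). Members higher therefore numbered 2 with DESeq2, 1 with the replicate block and 0 to 1 with single libraries left out, and members lower 0 throughout. Pathway genes higher and lower were 5 and 2 with DESeq2, 5 and 3 with the block, and 1 and 0 without ketogenic replicates 3 and 4 together, which stood apart on the second principal component. Pathway genes lower were 0 with library size alone and with limma on log2(FPKM + 1) or log2(FPKM + 0.1). With single libraries left out, 1 to 11 were higher and 0 to 2 lower. All genes higher and lower numbered 491 and 480 in the main result, 891 and 857 with DESeq2, 239 and 255 after removing trends with GC and length, 286 and 203 with limma on log2(FPKM + 1), 746 and 782 with the block, and 39 and 51 without ketogenic replicates 3 and 4; 229 were lower with log2(FPKM + 0.1). With single libraries left out they ran from 70 to 938 and 76 to 962. The cause of these shifts was not tested. Replicate numbers do not pair the libraries by any label. Same-numbered libraries deviated together with correlations across genes of 0.0597, 0.0545, 0.102 and 0.0698, and ketogenic replicate 4 correlated best with control replicate 2 (0.0831).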
